A study of Mus musculus with 36 samples.

Results

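The comparison described here is that of NS11021 with its solvent DMSO in E0771 cells, a mouse line grown from a mammary adenocarcinoma. It was read from the 3 libraries labelled NS11021 and the 3 labelled DMSO, 6 of the 36 in the series, and from all 13357 genes that passed the filter on low counts. After 24 h of attachment the cells were exposed for another 24 h to 10 µM NS11021 or to DMSO. The 12 further E0771 libraries lent their spread to the fit: they had 10 µM BMS204352, or 40 mM KCl alone or combined with 1 of the compounds, and numbered 3 a group. Libraries of AT-3, a line from an MMTV-PyMT mammary tumour, with DMSO or with the same dose and time of NS11021, served for a comparison between lines. The labels name no engineered allele in E0771. Neither the DMSO dose nor whether the groups with KCl and no compound also had DMSO is stated by the labels. Nothing says that the 3 libraries of a group came from separate cultures, so the p-values measure only the spread between these libraries.

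NS11021 opens the BK channel, a potassium channel that membrane depolarization and intracellular calcium gate and whose pore Kcnma1 encodes. Potassium leaving through it moves the membrane towards more negative voltages and so can alter calcium entry. The series' title names expression driven by MRTFA and SRF together with cytosolic calcium and potassium. MRTFA is a coactivator that monomeric actin holds out of the nucleus, and SRF is the DNA-binding factor with which it switches on genes of actin and its partners. The question answered here is which genes of E0771 differed after 24 h with the opener.

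The 6 libraries held 34.7 to 47.9 M counts. Their first principal component (48.6% of variance) put the 3 DMSO libraries between −16.9 and −12.9 and the 3 NS11021 libraries between 13 and 18.5. The mitochondrial share of counts was 0.626 to 0.720% with DMSO and 0.604 to 0.806% with NS11021, so these ranges overlapped. The label of a breast cancer cell was checked against markers: the keratin Krt8 had 201 to 227 CPM, yet the epithelial genes Epcam and Krt18 had 0 to 6 counts in each library and Cdh1 0.882 to 1.8 CPM, while the mesenchymal filament Vim had 3590 to 4490 CPM. These are counts per M of the library total; CPM below are normalized counts per M of counts in the tested genes. The leukocyte marker Ptprc and the adipocyte marker Adipoq had 0 counts in all 6 libraries, under a floor of 0.0127 CPM (3 counts over the 6 libraries), which covers counting error only. The floor takes each count as a separate fragment, which was not tested.

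NS11021 changed many genes by small amounts. Of the 13357 genes tested, 3515 passed an adjusted p below 0.05 (26.3%), 1715 of them higher (12.8%) and 1800 lower (13.5%). The median size of change among them was 0.29 on the log2 scale, or 1.22-fold. Changes of at least 2-fold were found for 122 genes that were higher and 35 that were lower, and of at least 1.5-fold for 319 and 148. The ranges of the 3 NS11021 and 3 DMSO libraries did not overlap for 5802 genes (43.4%), 2896 of them higher (21.7%) and 2906 lower (21.8%), and 3424 of these also passed the threshold. The median log2 fold change over all genes was 0.0019. Counts of list members below are to be read against the 12.8% higher and 13.5% lower among all genes. Every adjusted p in this text comes from edgeR's quasi-likelihood test with Benjamini-Hochberg adjustment over all genes tested, a value after ± is the standard error of the log2 fold change before it unless marked SD, and n is 3 against 3. In bulk samples, fewer cells of a type and less RNA per cell cannot be told apart.

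**Figure D1:**
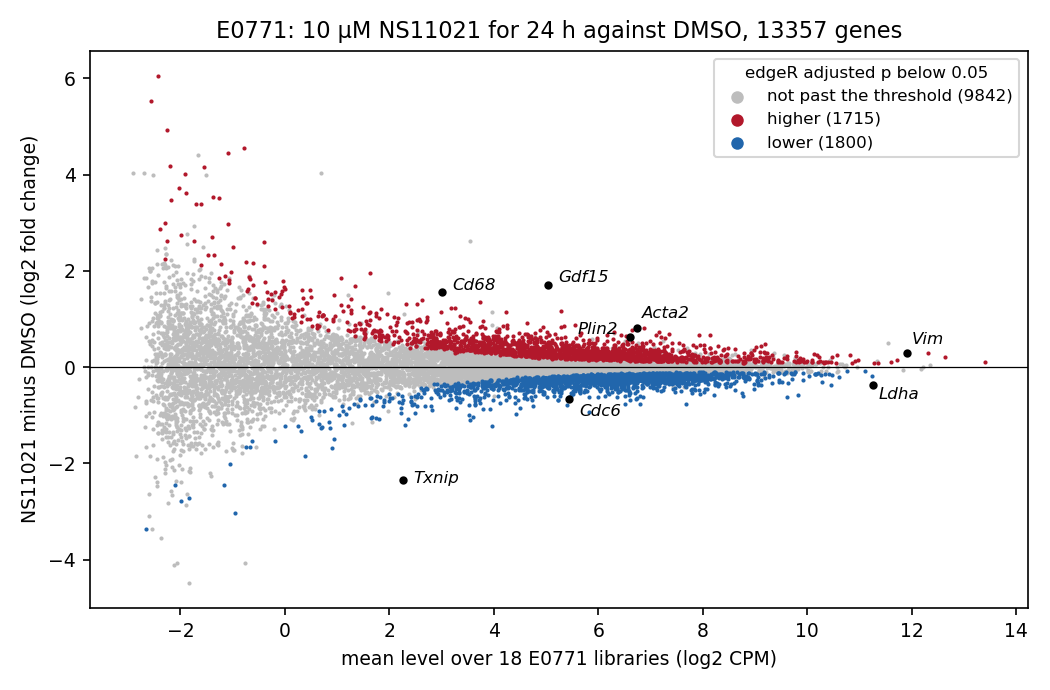
Log2 fold change of NS11021 against DMSO in E0771 (vertical axis) against the mean level over the 18 E0771 libraries (log2 CPM, horizontal axis), 1 point a gene, red for the 1715 higher and blue for the 1800 lower at an adjusted p below 0.05. Most coloured points lie within 1 log2 unit of 0, and Txnip lies lowest among genes above 2 log2 CPM.

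The gene with the largest fall by the naming rule was Txnip, which encodes an arrestin that binds thioredoxin and limits glucose uptake. Its gene lies at chr3:96557957-96561883 of GRCm38. Txnip measured 7.85, 7.88 and 7.94 CPM in the DMSO libraries and 1.39, 1.59 and 1.63 CPM in the NS11021 libraries. The 3 DMSO libraries lay close together and every NS11021 library lay far below them, a 5.11-fold fall (log2 −2.35 ± 0.19, adjusted p = 3.59e-10). In many cells Txnip is switched on by MondoA and MLX, which bind paired E-box-like letters, the carbohydrate response element, when glucose 6-phosphate is high. The sequence of its promoter is shown because that element can be read in it. Capitals mark that element, 2 E-box-like stretches with 5 bases between them, searched on both strands of the RefSeq promoters (250 bases before to 50 after a start) of GRCm38.p6, written in the direction of the gene:
Txnip (chr3:96557707-96558006, + strand): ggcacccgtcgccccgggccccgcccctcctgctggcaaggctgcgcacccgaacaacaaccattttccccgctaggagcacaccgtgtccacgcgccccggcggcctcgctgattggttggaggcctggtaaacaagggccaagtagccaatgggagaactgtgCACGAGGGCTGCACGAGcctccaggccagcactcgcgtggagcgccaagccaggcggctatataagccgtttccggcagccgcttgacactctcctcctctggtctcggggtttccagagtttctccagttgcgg
The match starts 85 bases before the start of the gene. The same letters stood in 10 of the 10106 tested genes that have a promoter in the table (0.099%). A match is a description and not a measured site. Of the other members of the list of glucose-sensing arrestins and their regulators, Arrdc3 rose (0.67 ± 0.09, from 28.3, 27.8 and 29.7 CPM with DMSO and 46.8, 43.6 and 46.4 CPM with NS11021), as did Pfkfb3 (0.20 ± 0.07, adjusted p = 0.0391), which makes the activator of phosphofructokinase. The adjusted p of Pfkfb3 reached 0.164 in the alternatives tried, and it did not pass without DMSO replicate 1 or 2 or any 1 of the NS11021 libraries. Mlx (−0.10) and Mlxip (−0.10), which encode MLX and MondoA, did not pass.

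Of 39 tested genes of glycolysis and of the hypoxia response 19 were lower (48.7%, against 13.5% of all genes), 4 higher (10.3%, against 12.8%) and 16 not past the threshold, with a median of −0.126. HIF1 is the factor that low oxygen stabilizes, and it binds near genes for glucose breakdown, mitophagy and its own destruction. Phosphofructokinase Pfkl, the committed step of glycolysis, measured 457, 451 and 459 CPM in the DMSO libraries and 323, 300.3 and 316 CPM in the NS11021 libraries (−0.54 ± 0.04, adjusted p = 2.01e-10). Lactate dehydrogenase Ldha, which turns pyruvate into lactate, measured 2495, 2479 and 2451 CPM in the DMSO libraries and 1941, 1875 and 1944 CPM in the NS11021 libraries, and the histone demethylase Kdm3a, a classic target of HIF1, measured 111, 111 and 109 CPM with DMSO and 71.2, 69.1 and 71.5 CPM with NS11021. In all 3 genes the groups were separated by more than the whole range within a group. The log2 change was −0.37 ± 0.04 for Ldha (adjusted p = 2.02e-08) and −0.64 ± 0.05 for Kdm3a (adjusted p = 2.02e-10).

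The oxygen sensor Egln1, a prolyl hydroxylase that marks HIF1 for breakdown and is itself switched on by it, fell by 1.4-fold from 185 ± 4.09 to 132 ± 5.84 CPM (SD, n = 3; log2 −0.49 ± 0.04, adjusted p = 4.07e-09). The vasodilator peptide gene Adm measured 60.4, 52.2 and 46.8 CPM in the DMSO libraries and 28.9, 25.1 and 29.8 CPM in the NS11021 libraries, with every NS11021 library below every DMSO library (−0.93 ± 0.12, adjusted p = 4.15e-05). Members singled out after their values were seen were Ankrd37 (−1.05 ± 0.22), the mitophagy receptors Bnip3 (−0.80 ± 0.10) and Bnip3l (−0.42 ± 0.07), the collagen prolyl hydroxylase P4ha2 (−0.51 ± 0.06) and the glycolytic enzymes Pgam1 (−0.41 ± 0.04) and Tpi1 (−0.38 ± 0.04). Against that direction went the neuronal glucose carrier Slc2a3 (0.46 ± 0.09), the enolase Eno2 (0.52 ± 0.16), the growth factor Vegfa (0.25 ± 0.09) and Pfkfb3. This count of 4 was 1 without NS11021 replicate 1 or 2 and 2 without NS11021 replicate 3 or any 1 of the 3 DMSO libraries. The main glucose carrier Slc2a1 (−0.09 ± 0.08), Gapdh (−0.03 ± 0.03) and the kinase Pdk1 (−0.10 ± 0.05) did not pass. The transcript of HIF1's own alpha subunit, Hif1a, also chosen after its value was seen, was higher (0.38 ± 0.05).

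Promoters of 2 falling members are shown because the letters that HIF1 is known to bind, ACGTG or GCGTG on either strand, recur in them. Capitals mark these letters. CACGTG counts as 2 matches that overlap, 1 on each strand:
Ankrd37 (chr8:45999801-46000100, - strand): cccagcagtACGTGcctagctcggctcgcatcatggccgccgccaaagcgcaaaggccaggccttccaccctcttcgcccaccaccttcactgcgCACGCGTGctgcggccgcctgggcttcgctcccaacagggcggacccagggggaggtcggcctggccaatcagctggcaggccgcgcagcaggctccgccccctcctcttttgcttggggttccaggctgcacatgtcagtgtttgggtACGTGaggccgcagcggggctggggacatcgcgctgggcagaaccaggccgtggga
Ldha (chr7:46845554-46845853, + strand): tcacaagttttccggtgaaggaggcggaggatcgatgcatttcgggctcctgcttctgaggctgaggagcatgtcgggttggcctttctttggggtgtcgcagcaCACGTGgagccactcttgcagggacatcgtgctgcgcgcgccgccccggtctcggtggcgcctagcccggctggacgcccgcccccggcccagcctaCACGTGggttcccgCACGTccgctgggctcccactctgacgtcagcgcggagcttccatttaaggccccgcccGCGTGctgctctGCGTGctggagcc
Ankrd37 held 4 matches and Ldha 7. The letters are short, and 66.9% of tested genes with a promoter in the table held them. They stood in 16 of 18 falling members (88.9%) and in 13 of 14 members that did not pass (92.9%), so their presence did not separate the falling members from the rest of the list. Where a gene had several promoters in the table it was counted if any 1 held the letters, and the promoter with the most matches was printed.

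**Figure D2:**
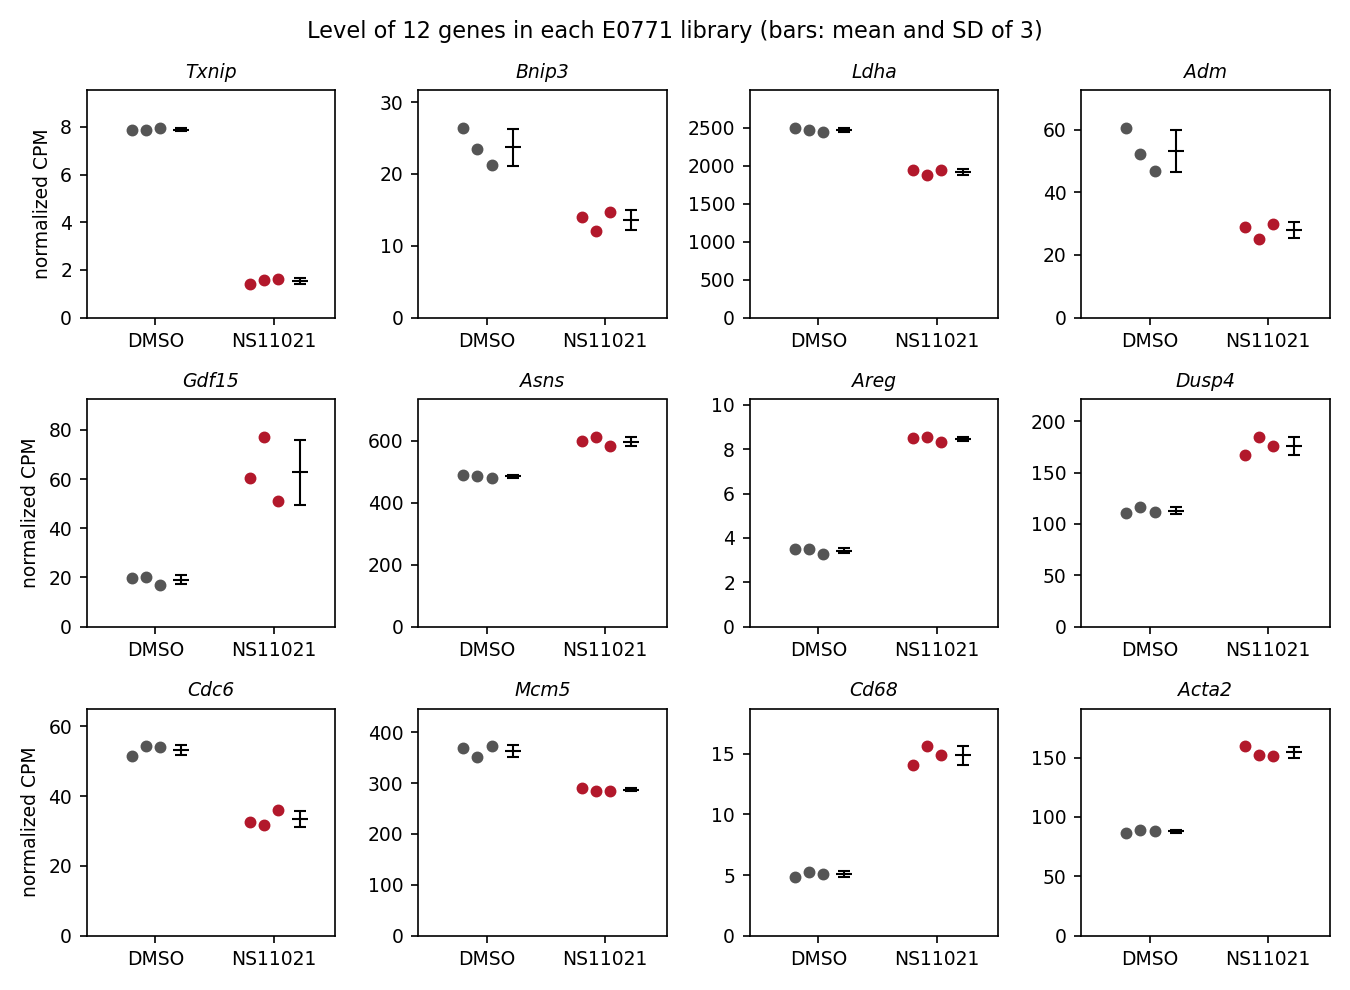
Level of 12 genes in each of the 6 libraries (normalized CPM on linear axes from 0), grey for DMSO and red for NS11021, with the mean and SD of 3 beside each group. In each of the 12 panels every NS11021 library lies on the same side of all 3 DMSO libraries, such as Cd68 at 14 CPM or more with NS11021 and at 5.28 or less with DMSO.

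Of 38 tested genes of the G1/S transition and DNA replication 22 were lower (57.9%, against 13.5% of all genes), 0 higher and 16 not past the threshold, with a median of −0.215. These genes are driven by E2F factors once the retinoblastoma protein is phosphorylated. Cdc6, which loads the replicative helicase, measured 51.5, 54.3 and 54 CPM in the DMSO libraries and 32.6, 31.7 and 36 CPM in the NS11021 libraries. Cyclin E2, encoded by Ccne2, measured 41.1, 36.7 and 38.7 CPM with DMSO and 28.1, 23.1 and 28.3 CPM with NS11021. Both fell without overlap, Cdc6 by 1.59-fold (−0.67 ± 0.06, adjusted p = 7.57e-09) and Ccne2 by 1.47-fold (−0.55 ± 0.07, adjusted p = 2.2e-06). Uhrf1, which carries DNA methylation through replication, fell by 1.3-fold (−0.38 ± 0.05). The helicase subunit Mcm5 measured 369, 350.5 and 372 CPM in the DMSO libraries and 290.1, 285 and 284 CPM in the NS11021 libraries (−0.34 ± 0.05, adjusted p = 8.23e-06). Of the helicase subunits Mcm2 to Mcm7, Mcm2 (−0.08) was the 1 that did not pass. The thymidylate-making enzyme Tyms fell (−0.45 ± 0.08), and it also stands in the list of one-carbon enzymes. The D cyclin Ccnd1, which acts upstream, was −0.01 ± 0.05 and did not pass.

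Promoters of 2 falling members are shown, each with the E2F letters TTTCCCGC, TTTGGCGC or TTTCGCGC on either strand in capitals:
Cdc6 (chr11:98907901-98908200, + strand): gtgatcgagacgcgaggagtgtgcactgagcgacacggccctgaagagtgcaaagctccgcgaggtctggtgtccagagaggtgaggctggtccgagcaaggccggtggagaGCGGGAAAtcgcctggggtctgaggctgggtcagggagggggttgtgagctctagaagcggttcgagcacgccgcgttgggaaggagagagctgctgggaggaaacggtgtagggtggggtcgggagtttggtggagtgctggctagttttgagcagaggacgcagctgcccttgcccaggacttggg
Mcm6 (chr1:128359656-128359955, - strand): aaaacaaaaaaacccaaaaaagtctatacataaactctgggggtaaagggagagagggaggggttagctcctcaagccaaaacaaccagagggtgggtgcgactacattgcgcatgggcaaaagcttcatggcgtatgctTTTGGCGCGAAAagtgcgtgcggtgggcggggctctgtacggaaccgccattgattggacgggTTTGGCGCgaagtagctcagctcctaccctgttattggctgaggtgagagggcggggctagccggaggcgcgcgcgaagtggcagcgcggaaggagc
The promoter of Mcm6 held 3 matches, 2 of which overlap. These letters stood in 3.99% of tested genes with a promoter in the table. They stood in 10 of 17 falling members of the G1/S list (58.8%) and in 3 of 13 members that did not pass (23.1%). Members of this list are known E2F targets, so the share over the list is not evidence about NS11021.

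Of 35 tested genes of G2 and mitosis 7 were lower (20%, against 13.5%) and 2 higher, with a median of −0.094. Those that fell included the factors Mybl2 (−0.33 ± 0.05) and Foxm1 (−0.19 ± 0.04), which switch on mitotic genes, and the kinesin Kif23 (−0.22 ± 0.04). The phosphatase Cdc25b rose (0.18 ± 0.05, adjusted p = 0.0107) and so did Top2a (0.13 ± 0.04). That 2 was 0 without DMSO replicate 1 and 1 without NS11021 replicate 2. The count of 7 was 3 without DMSO replicate 1, NS11021 replicate 2 or NS11021 replicate 3, and 4 without DMSO replicate 3. The proliferation marker Mki67 was −0.04 ± 0.05 and did not pass. Among clustered histone genes 1 of 22 was higher and 1 lower.

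The integrated stress response lowers general translation through phosphorylated eIF2 and raises the factor ATF4, which switches on genes for amino acid uptake and synthesis. Of 38 tested members of the ATF4 list 21 were higher (55.3%, against 12.8% of all genes), 1 lower and 16 not past the threshold, with a median of 0.304. The count of 21 was 13 without DMSO replicate 1 or NS11021 replicate 2 and 12 without DMSO replicate 3. Gdf15, a secreted stress cytokine at chr8:70629393-70632456, had the largest rise of all by the naming rule. It measured 19.9, 20.4 and 17.1 CPM in the DMSO libraries and 60.3, 77 and 50.9 CPM in the NS11021 libraries, so the lowest NS11021 library stood far above the highest DMSO library (3.27-fold, log2 1.71 ± 0.29, adjusted p = 0.000815). The NS11021 libraries of Gdf15 differed among themselves, with replicate 2 highest. Asparagine synthetase Asns measured 488, 485 and 481 CPM in the DMSO libraries and 599, 611 and 581 CPM in the NS11021 libraries (0.30 ± 0.05, adjusted p = 1.39e-05). The proline-making enzymes Pycr1 (0.87 ± 0.14) and Aldh18a1 (0.46 ± 0.06) rose as well, Pycr1 from 17, 16 and 15.9 CPM with DMSO and 30.8, 29.2 and 29.6 CPM with NS11021. The death-associated factor Ddit3 rose (1.15 ± 0.39, adjusted p = 0.0458), but did not pass without any 1 of the 6 libraries, with an adjusted p up to 0.137. Slc38a2, a carrier of small neutral amino acids that also stands in the hypertonic list, went the other way and fell from 374, 412 and 414 CPM with DMSO and 288, 295 and 294 CPM with NS11021 (−0.45 ± 0.05, adjusted p = 3.01e-07). Atf4 itself was 0.18 ± 0.08 and did not pass.

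Promoters of 2 rising members are shown because the C/EBP-ATF response element, to which ATF4 binds, can be read in them. Capitals mark TGATGNAA on either strand:
Asns (chr6:7693160-7693459, - strand): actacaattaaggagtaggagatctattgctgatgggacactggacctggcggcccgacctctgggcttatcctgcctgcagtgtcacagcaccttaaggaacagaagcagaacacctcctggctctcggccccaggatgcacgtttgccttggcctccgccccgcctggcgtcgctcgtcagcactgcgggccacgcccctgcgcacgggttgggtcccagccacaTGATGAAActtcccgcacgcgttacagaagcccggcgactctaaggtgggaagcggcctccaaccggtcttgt
Chac1 (chr2:119350992-119351291, + strand): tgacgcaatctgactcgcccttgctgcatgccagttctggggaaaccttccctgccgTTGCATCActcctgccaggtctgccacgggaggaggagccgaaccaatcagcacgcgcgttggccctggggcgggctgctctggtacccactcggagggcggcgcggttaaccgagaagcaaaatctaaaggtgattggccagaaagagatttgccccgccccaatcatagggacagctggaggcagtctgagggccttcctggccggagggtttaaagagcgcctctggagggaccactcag
Chac1, a glutathione-degrading enzyme, was 0.71 ± 0.13, a value looked at after the list's counts were seen. The letters stood in 8 of 18 rising members (44.4%), in 2 of 12 members that did not pass (16.7%) and in 2.66% of tested genes with a promoter in the table. Members of the list are known ATF4 targets, and that choice sets the share over the list.

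Aminoacyl-tRNA synthetases, which charge tRNAs and many of which are ATF4 targets, rose in part. Of 37 tested members 13 were higher (35.1%, against 12.8% of all genes) and 2 lower (5.41%, against 13.5%), with a median of 0.136. The seryl enzyme Sars measured 462, 484 and 459 CPM in the DMSO libraries and 625, 654 and 603 CPM in the NS11021 libraries (0.42 ± 0.06, adjusted p = 7.88e-05), and every NS11021 library was above every DMSO library. The methionyl enzyme Mars (0.24 ± 0.04) and the mitochondrial enzymes Tars2 (0.34 ± 0.06) and Iars2 (0.22 ± 0.04) rose as well. The 2 that fell were the mitochondrial Cars2 and Yars2; that 2 was 1 without DMSO replicate 3 or any 1 of the NS11021 libraries. Of mitochondrial chaperones and proteases 7 of 19 were higher (36.8%) and 1 lower (5.26%). The higher ones included the peptidases Htra2 (0.40 ± 0.07) and Spg7 (0.30 ± 0.05), the chaperone Trap1 (0.24 ± 0.05) and the import receptor Tomm20 (0.20 ± 0.04). In the one-carbon list the serine-making Phgdh (0.22 ± 0.05) and the mitochondrial Mthfd2 (0.34 ± 0.08) rose.

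Protein-folding genes of the ER and cytosol were called lower more often than higher. Of ER chaperones and unfolded protein response genes 9 of 28 were lower (32.1%) and 5 higher, and of heat shock genes 9 of 22 were lower (40.9%) and 0 higher, against 13.5% lower among all genes; the rest did not pass. The major ER chaperone Hspa5 measured 796, 801 and 812 CPM in the DMSO libraries and 624, 642 and 668 CPM in the NS11021 libraries (−0.32 ± 0.04, adjusted p = 7.93e-07). Its co-chaperone Dnajc3 (−0.41 ± 0.06) and the ER ubiquitin ligase Syvn1 (−0.37 ± 0.05) also fell, and the stress sensor Atf6 rose (0.51 ± 0.09, adjusted p = 0.00044). The ER count of 5 higher was 3 without DMSO replicate 1 or NS11021 replicate 3, and 2 without NS11021 replicate 2. In the cytosol, the HSP40 gene Dnajb1 measured 105, 111 and 114 CPM in the DMSO libraries and 75.4, 62.9 and 82.2 CPM in the NS11021 libraries (−0.58 ± 0.07, adjusted p = 4.32e-07). Hsph1 (−0.35 ± 0.05), Dnaja1 (−0.34 ± 0.05) and the small heat shock protein gene Hspb8 (−0.18 ± 0.05) fell too. The heat shock count of 9 was 5 without DMSO replicate 3.

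Of 24 tested genes of the ERK pathway's feedback and its EGF-type ligands 10 were higher (41.7%, against 12.8% of all genes), 0 lower and 14 not past the threshold, with a median of 0.205. ERK is the last kinase of a cascade that growth factor receptors start, and its activity switches on phosphatases that curb it. The phosphatase Dusp4 measured 111, 117 and 111 CPM in the DMSO libraries and 167, 184 and 176 CPM in the NS11021 libraries (0.64 ± 0.05, adjusted p = 1.05e-09), and Dusp6, which acts on ERK in the cytosol, measured 39.8, 46.6 and 39.5 CPM with DMSO and 63.6, 62.3 and 66.1 CPM with NS11021 (0.61 ± 0.07). The EGF receptor ligand Areg rose 2.47-fold, from 3.5, 3.49 and 3.29 CPM with DMSO and 8.52, 8.54 and 8.35 CPM with NS11021 (1.30 ± 0.21, adjusted p = 3.18e-05). The ligand Hbegf rose by 1.54-fold (0.62 ± 0.11). In these 4 genes no NS11021 library overlapped the DMSO range. The receptor Egfr (0.33 ± 0.12) rose as well, a member singled out after its value was seen. Spry2 (0.18 ± 0.10) and Spry4 (0.07 ± 0.10), further ERK feedback genes, did not pass. Among immediate early genes, which serum and ERK switch on within minutes, 4 of 24 were higher (16.7%) and 3 lower (12.5%). These shares were near the 12.8% and 13.5% of all genes. Myc rose from 554, 560.2 and 554 CPM with DMSO and 743, 798 and 713 CPM with NS11021 (0.43 ± 0.07, adjusted p = 0.000145) and Klf4 rose (0.38 ± 0.09), while Ier2 (−0.25 ± 0.06) and Arc (−0.38 ± 0.11) fell, and Fos (0.06) and Egr1 (0.92 ± 0.60) did not pass. The count of 4 was 2 without NS11021 replicate 2, and that of 3 was 1 without NS11021 replicate 2 or DMSO replicate 1.

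The classic MRTF-SRF targets rose in 12 of 37 tested members (32.4%, against 12.8% of all genes) and fell in 0, with a median of 0.126. Smooth muscle actin Acta2, at chr19:34241090-34255590, measured 86.4, 89.1 and 87.8 CPM in the DMSO libraries and 159, 152 and 151 CPM in the NS11021 libraries. Its 3 NS11021 libraries lay well above the 3 DMSO libraries, 1.76-fold (log2 0.81 ± 0.13, adjusted p = 0.000613). The actin-linked scaffold Pdlim5 rose from 49.3, 47 and 51.3 CPM with DMSO and 65.4, 65.8 and 67.4 CPM with NS11021 (0.43 ± 0.06), the actin-oxidizing enzyme Mical2 from 31.6, 30.1 and 32.4 CPM with DMSO and 40.4, 47.2 and 43.3 CPM with NS11021 (0.48 ± 0.07), and Tagln2, a transgelin, by 1.13-fold (0.18 ± 0.04, adjusted p = 0.000588). Vinculin (Vcl, chr14:20929398-21033676), which links integrins to actin, measured 140.2, 143 and 148 CPM in the DMSO libraries and 170.2, 167 and 156 CPM in the NS11021 libraries, higher without overlap (0.20 ± 0.06, adjusted p = 0.011). The factors did not pass: Srf (chr17:46548329-46556175) was 0.04 ± 0.06, Mrtfa (chr15:81012281-81190757) 0.12 ± 0.07 and Mrtfb (chr16:13256481-13417529) −0.09 ± 0.06. Cytoplasmic actin Actb (chr5:142903115-142906754) measured 5056, 4967 and 4923 CPM in the DMSO libraries and 5195, 4927 and 4957 CPM in the NS11021 libraries, with overlapping groups (0.01 ± 0.04, adjusted p = 0.843). The myosin light chain Myl9 (chr2:156775420-156781658) was 0.58 ± 0.24 (adjusted p = 0.0729) at 1.31 to 3.82 CPM; without DMSO replicate 1 or NS11021 replicate 1 it was 0.36 and 0.33, and without DMSO replicate 3 it passed (0.79, adjusted p = 0.0307).

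Targets of YAP and TEAD, which respond to tension and cell shape and overlap with SRF targets, moved both ways. Of 17 tested 7 were higher (41.2%, against 12.8% of all genes) and 6 lower (35.3%, against 13.5%), with a median of −0.004. The matricellular gene Ccn1 (chr3:145646976-145649981) measured 31.1, 33 and 30.7 CPM in the DMSO libraries and 51.6, 52.8 and 42.8 CPM in the NS11021 libraries (0.63 ± 0.18, adjusted p = 0.0176). Its groups did not overlap, but it did not pass without DMSO replicate 1 or 3 or NS11021 replicate 1 or 2, with an adjusted p up to 0.0615. Ccn2 (chr10:24595442-24598683) measured 6.88, 5.25 and 6 CPM with DMSO and 4.89, 5.7 and 4.77 CPM with NS11021, with overlapping groups, and did not pass (−0.24 ± 0.23, adjusted p = 0.493). Nt5e, which makes adenosine at the cell surface, rose (0.61 ± 0.08), as did the YAP relative Wwtr1 (0.35 ± 0.05) and the transmembrane protein gene Crim1 (0.38 ± 0.06). The junction protein gene Ajuba fell (−0.45 ± 0.07, adjusted p = 1.12e-05).

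Adhesion genes rose more often than they fell. Of 49 tested members 14 were higher (28.6%, against 12.8% of all genes) and 4 lower (8.16%, against 13.5%), with a median of 0.073. The integrin subunit Itgb3 measured 6.42, 6.7 and 5.77 CPM in the DMSO libraries and 11.4, 13.1 and 14.9 CPM in the NS11021 libraries, so the lowest NS11021 library stood above the highest DMSO library (1.06 ± 0.16, adjusted p = 2.39e-05). Itga6, a laminin receptor subunit, rose from 259, 268 and 275 CPM with DMSO and 334, 368 and 359.8 CPM with NS11021 (0.41 ± 0.05). The integrin-linked Parvb (0.32 ± 0.05) and the membrane-actin linker Ezr (0.22 ± 0.04) rose as well. Mesenchymal markers were higher in 4 of 16 (25%, against 12.8% of all genes) and lower in 1 (6.25%, against 13.5%). The other 11 did not pass, and the median was 0.074. Vim rose from 3646, 3681 and 3599 CPM with DMSO and 4442, 4525 and 4407 CPM with NS11021 (0.29 ± 0.03, adjusted p = 4.25e-09). The other 3 that rose were the homeobox factor Prrx1 (0.57 ± 0.10), the repressor Zeb2 (0.27 ± 0.05) and the matrix protein Tgfbi (0.35 ± 0.07). Among collagens and matrix 7 of 40 were higher (17.5%) and 4 lower (10%), near the 12.8% and 13.5% of all genes. Col6a3, a chain of microfibrillar collagen VI, rose to 44.6 CPM or more from 30.8 or less (1.18 ± 0.23, adjusted p = 0.0021). The plasminogen activator Plau (0.60 ± 0.11), Col18a1 (0.22 ± 0.04) and the laminin chain Lamb1 (1.16 ± 0.28) rose, and the protease inhibitor Timp2 fell (−0.25 ± 0.04). The count of 7 was 4 without DMSO replicate 1 or NS11021 replicate 2, and that of 4 was 2 without DMSO replicate 1, DMSO replicate 2 or NS11021 replicate 3. In the TGF-beta and BMP list 6 of 17 were higher (35.3%, against 12.8% of all genes) and 4 lower (23.5%, against 13.5%). The latency protein gene Ltbp1 rose (0.45 ± 0.06), and the transcription inhibitor Id3 (−0.57 ± 0.11) and the corepressor Ski (−0.21 ± 0.05) fell. That count of 4 was 2 without DMSO replicate 1 or NS11021 replicate 3.

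**Figure D3:**
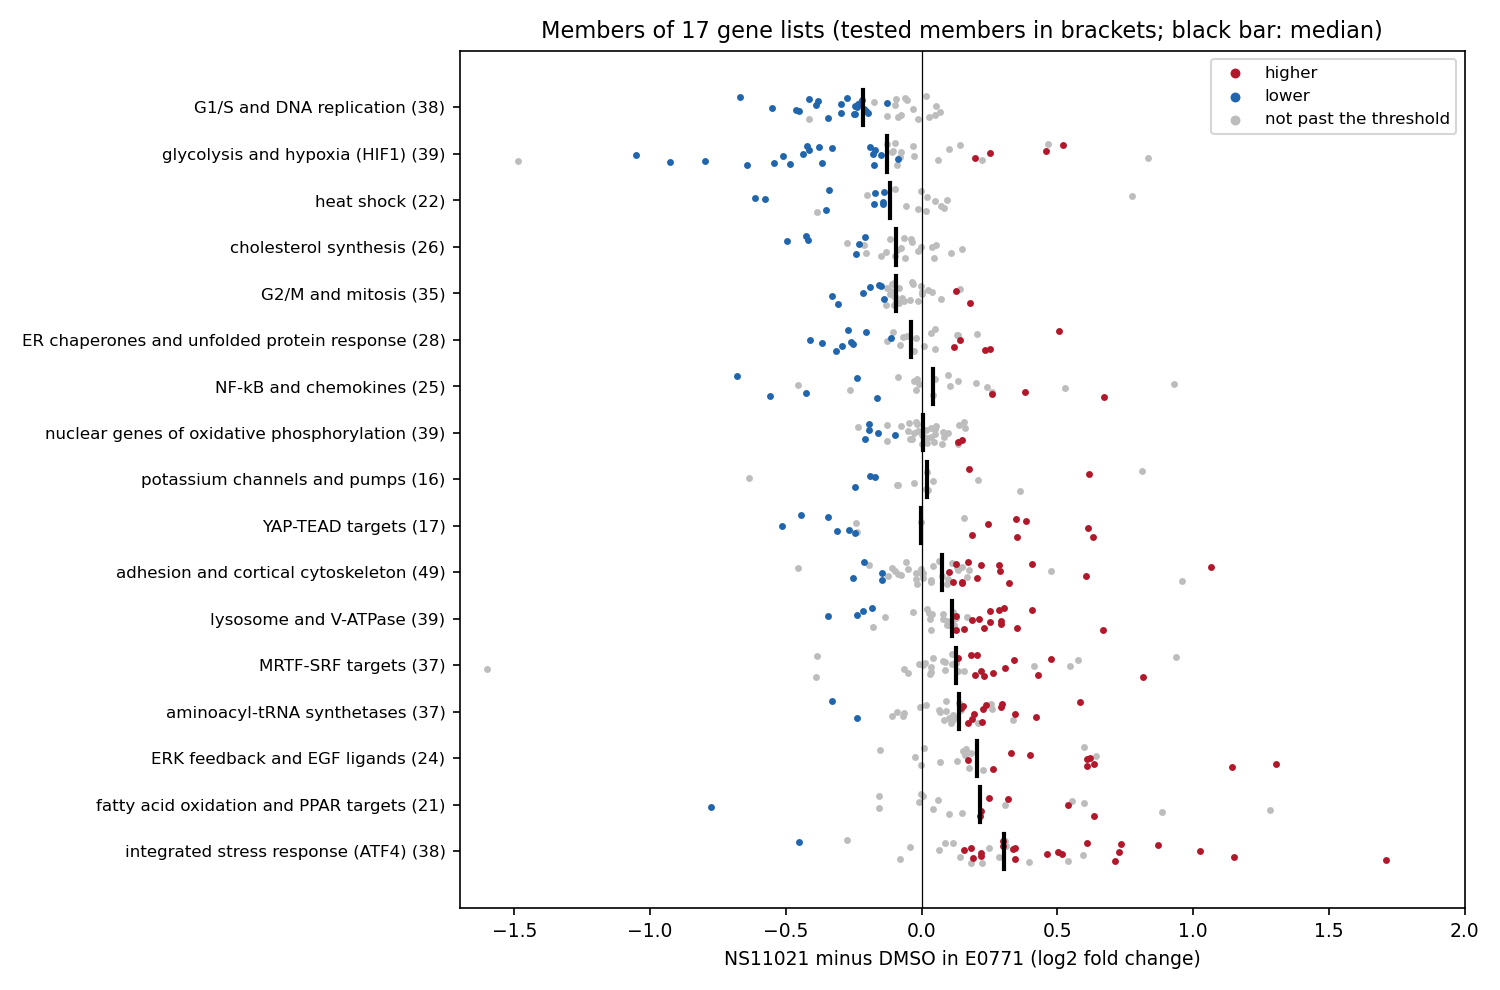
Log2 fold change of NS11021 against DMSO in E0771 for the tested members of 17 gene lists, 1 point a member (red higher, blue lower, grey not past the threshold) and a black bar for each list's median; the 1 value beyond the left edge is drawn at −1.6. Medians run from −0.215 for G1/S and DNA replication to 0.304 for the ATF4 list.

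Of 39 tested lysosomal genes 15 were higher (38.5%, against 12.8% of all genes), 4 lower and 20 not past the threshold, with a median of 0.112. The protease Ctsl measured 450.5, 444 and 422 CPM in the DMSO libraries and 548, 580.0 and 553 CPM in the NS11021 libraries (0.35 ± 0.04, adjusted p = 6.02e-07), and Gpnmb, a lysosome-associated glycoprotein gene, measured 199.7, 195 and 198 CPM with DMSO and 298, 311 and 332 CPM with NS11021 (0.67 ± 0.07, adjusted p = 1.77e-06). Neither overlapped between groups. The protease Ctsb (0.25 ± 0.03) and the glycogen-degrading Gaa (0.29 ± 0.05) rose too. The regulators Tfeb (−0.18 ± 0.12) and Tfe3 (−0.03 ± 0.06) did not pass. Cd68, a lysosomal glycoprotein gene best known from macrophages, at chr11:69664213-69666153, measured 4.81, 5.28 and 5.08 CPM in the DMSO libraries and 14, 15.6 and 14.9 CPM in the NS11021 libraries, the second largest rise by the naming rule (2.94-fold, log2 1.55 ± 0.13, adjusted p = 6.99e-10). Of the 10 leukocyte markers 3 were tested and Cd68 was the 1 that passed, while Csf1r (−0.10) and Lyz2 (−0.06) did not and the pan-leukocyte Ptprc was at 0 counts. The summed level of the 3 tested leukocyte markers was 10.2 to 11.2 CPM with DMSO and 19.9 to 20.7 CPM with NS11021. Of fibroblast markers 2 of 6 were higher, Ly6c1 (0.75 ± 0.21) and Ly6a (0.55 ± 0.16), and Pdgfra fell (−0.26 ± 0.05), with a summed level of 245.0 to 272 CPM with DMSO and 229 to 246 CPM with NS11021; Dcn, Lum, Thy1 and Fap had 0 counts. The count of 2 was 1 without DMSO replicate 1, DMSO replicate 2 or NS11021 replicate 2. Of endothelial markers 1 of 3 was lower, Eng (−0.26 ± 0.04), with a summed level of 201 to 214 CPM with DMSO and 171 to 177 CPM with NS11021. The other 2 were above 0 (up to 0.90) and did not pass, and the median of the 3 was 0.622. Of these, Pecam1 was low, at 0.458 to 0.75 CPM of the library total with DMSO and 0.663 to 1.63 with NS11021. The part of other cells in these values was not tested.

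Lipid genes split by direction. Of 21 tested genes of fatty acid oxidation and PPAR targets 6 were higher (28.6%, against 12.8% of all genes) and 1 lower (4.76%, against 13.5%). Plin2, which coats lipid droplets, measured 83.9, 85.6 and 75.9 CPM in the DMSO libraries and 128, 132 and 122 CPM in the NS11021 libraries (0.63 ± 0.06, adjusted p = 3.73e-09), and the acyl-CoA dehydrogenase Acadl measured 72.1, 76.6 and 69.9 CPM with DMSO and 106, 106 and 105 CPM with NS11021 (0.54 ± 0.06, adjusted p = 3.77e-08). Both rose without overlap. The enoyl-CoA isomerase Ech1 rose (0.32 ± 0.05), and the lipase inhibitor Angptl4, also a target of HIF1, fell from 17.9, 15.2 and 18.3 CPM with DMSO and 9.67, 8.85 and 11.4 CPM with NS11021 (−0.78 ± 0.13). Fatty acid synthesis had 4 of 16 lower (25%) and 0 higher: Elovl6 (−0.40 ± 0.06), Scd2 (−0.21 ± 0.05), Fads2 (−0.25 ± 0.06) and the factor Srebf1 (−0.25 ± 0.05). Cholesterol synthesis had 6 of 26 lower (23.1%) and 0 higher, among them the carrier Stard4 (−0.42 ± 0.08), Acat2 (−0.50 ± 0.13) and Hmgcs1 (−0.23 ± 0.07, adjusted p = 0.0221); Hmgcs1 did not pass without DMSO replicate 1 or NS11021 replicate 1 or 3, with an adjusted p up to 0.126. That count of 6 was 3 without DMSO replicate 1 or NS11021 replicate 3. Soat2, which esterifies cholesterol, rose from 4.23, 3.71 and 2.69 CPM with DMSO and 10.1, 8.68 and 9.42 CPM with NS11021 (1.40 ± 0.45, adjusted p = 0.0351), but did not pass without any 1 of the 6 libraries, with an adjusted p up to 0.120.

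Of NRF2 targets, which oxidants and electrophiles switch on, 10 of 30 were higher (33.3%, against 12.8% of all genes) and 2 lower (6.67%, against 13.5%). Those of lowest adjusted p were the ferritin chains Fth1, from 4588, 4639 and 4585 CPM with DMSO and 5647, 5814 and 5606 CPM with NS11021 (0.31 ± 0.03, adjusted p = 5.03e-08), and Ftl1 (0.25 ± 0.04), with the aldo-keto reductase Akr1b8 (0.64 ± 0.10) and the exporter Abcc1 (0.27 ± 0.05). The most used NRF2 markers Nqo1 (0.19 ± 0.08) and Hmox1 (0.23 ± 0.11) did not pass. The transferrin receptor Tfrc, which brings iron into cells and was named from the NFAT and CREB list, fell. It measured 313, 296 and 311 CPM with DMSO and 237, 189 and 232 CPM with NS11021 (−0.48 ± 0.10, adjusted p = 0.00342). Of p53 targets 7 of 28 were higher (25%) and 3 lower (10.7%). The DNA damage gene Gadd45a measured 8.48, 10.6 and 8.8 CPM in the DMSO libraries and 19.8, 30.5 and 21 CPM in the NS11021 libraries (1.35 ± 0.28, adjusted p = 0.00272), with NS11021 replicate 2 highest, and the ribonucleotide reductase subunit Rrm2b measured 14.8, 15.2 and 14.5 CPM with DMSO and 25.8, 27.5 and 23.9 CPM with NS11021 (0.79 ± 0.10). Ddb2 (1.28 ± 0.28) and the kinase Plk3 (0.39 ± 0.09) rose as well. The most used p53 targets Cdkn1a (0.26 ± 0.13) and Bax (−0.04 ± 0.05) did not pass. The count of 3 lower p53 targets was 1 without NS11021 replicate 2.

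Kcnma1, the gene of the compound's stated target, had 4, 0 and 0 counts in the DMSO libraries and 4, 4 and 4 in the NS11021 libraries, and was too low to test. Its partner subunit Kcnmb1 had 2, 0 and 0 counts with DMSO and 5, 8 and 0 with NS11021, also too low to test, and the partners Kcnmb2, Kcnmb4 and Lrrc26 had 0 in all 6 libraries. Of 16 tested channels and pumps 2 were higher (12.5%) and 3 lower (18.8%), near the 12.8% and 13.5% of all genes. The voltage-gated channel Kcnh2 rose from 25.5, 28.7 and 26.4 CPM with DMSO and 37.5, 41.5 and 44.4 CPM with NS11021 (0.61 ± 0.11, adjusted p = 0.000435), while the sodium pump subunit Atp1b3 fell (−0.25 ± 0.04), as did the potassium-chloride carrier Slc12a7 (−0.19 ± 0.05). The calcium-activated channel Kcnn4 (chr7:24370263-24386690) measured 128, 119.7 and 125 CPM in the DMSO libraries and 112, 97 and 121 CPM in the NS11021 libraries (−0.17 ± 0.06, adjusted p = 0.0453). Its groups overlapped, and it passed with NS11021 replicate 3 left out but with no other of the 6, with an adjusted p up to 0.370. The KCNQ channel Kcnq5 (chr1:21398403-21961942) measured 19.1, 18.6 and 21.5 CPM with DMSO and 22.3, 23.3 and 22.7 CPM with NS11021, higher without overlap, and did not pass (0.21 ± 0.14, adjusted p = 0.287).

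Calcium genes had 4 of 34 higher and 4 lower (11.8% each), near the 12.8% and 13.5% of all genes. The store-operated channel Orai2 (0.28 ± 0.07) and the mitochondrial uniporter Mcu (0.26 ± 0.07) rose, and the voltage-gated Cacna1a fell from 24.3, 24.4 and 25.1 CPM with DMSO and 15.3, 11.2 and 14.3 CPM with NS11021 (−0.86 ± 0.18, adjusted p = 0.00285). The count of 4 lower was 2 without DMSO replicate 1 or NS11021 replicate 2. Of NFAT and CREB targets 4 of 18 were higher and 4 lower (22.2% each). The clock gene Per1 (0.47 ± 0.08) and the kinase Sik1 (0.18 ± 0.06) rose, and Tfrc (−0.48 ± 0.10) and the factor Nfatc3 (−0.17 ± 0.04) fell. The 4 that were higher became 2 without DMSO replicate 2 or NS11021 replicate 3 and 1 without DMSO replicate 3 or NS11021 replicate 2. The 4 that were lower became 2 without DMSO replicate 3 or NS11021 replicate 1. The calcineurin target Rcan1 fell (−0.32 ± 0.11), a member singled out after its value was seen. In the hypertonic list 4 of 17 were higher (23.5%) and 2 lower (11.8%), with the water channel Aqp1 up (0.58 ± 0.10) and the taurine carrier Slc6a6 down (−0.32 ± 0.04). That 4 became 2 without DMSO replicate 1, DMSO replicate 2 or NS11021 replicate 2.

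The remaining lists are given by their counts, to be read against the 12.8% and 13.5% of all genes. Nuclear genes of oxidative phosphorylation had 2 of 39 higher and 5 lower: the complex I subunit Ndufs1 rose (0.15 ± 0.05) and the ATP synthase subunit Atp5g1 fell (−0.19 ± 0.05). The count of 5 was 0 without NS11021 replicate 3, 1 without DMSO replicate 2 or NS11021 replicate 1, 2 without DMSO replicate 1, and 3 without DMSO replicate 3 or NS11021 replicate 2. Of 13 mitochondrially encoded transcripts mt-Nd1 (−0.61 ± 0.16) and mt-Cytb (−0.59 ± 0.16) were lower and 0 higher, and the 2 became 0 without DMSO replicate 1 or NS11021 replicate 2. Interferon and antigen presentation genes were at or under the shares of all genes, with 5 of 41 higher (12.2%), among them B2m (0.24 ± 0.05) and H2-D1 (0.17 ± 0.04), and 3 lower (7.32%), among them Irf1 (−0.43 ± 0.09). That 5 was 3 without DMSO replicate 2 or NS11021 replicate 2. NF-kB genes had 3 of 25 higher and 5 lower: the inhibitors Nfkbia (−0.56 ± 0.09) and Nfkbiz (−0.68 ± 0.11) fell, and the chemokine Ccl2 (0.67 ± 0.12) and Tnfaip2 (0.26 ± 0.04) rose. Aryl hydrocarbon receptor targets had 0 of 4 past the threshold in either direction; Tiparp was 0.16 ± 0.06. Metal response genes had 2 of 7 higher and 2 lower: the metallothionein Mt1 fell from 246, 240.1 and 239.5 CPM with DMSO and 168, 169.7 and 172 CPM with NS11021 (−0.51 ± 0.06, adjusted p = 3.55e-07), and the zinc importer Slc39a10 rose (0.40 ± 0.07). Both of these counts became 1 when single libraries were left out, except without NS11021 replicate 1 and, for the higher genes, DMSO replicate 1. Ribosome biogenesis had 2 of 30 higher and 8 lower (26.7%), with the Pol I factor Ubtf down (−0.22 ± 0.04). That 8 was 4 without NS11021 replicate 2 or 3. Clock and glucocorticoid genes had 4 of 20 higher, such as Dbp (0.49 ± 0.11), and 2 lower, such as Bhlhe41 (−0.28 ± 0.07); that 2 was 1 without NS11021 replicate 3 or any 1 of the DMSO libraries. Wnt and Notch genes had 3 of 17 higher, with the Notch ligand Jag1 (0.56 ± 0.10), and that 3 was 1 without DMSO replicate 2, DMSO replicate 3 or NS11021 replicate 2. Prostaglandin genes had 2 of 9 higher, Ptges and Pla2g4a, mitochondrial ribosomal proteins 3 of 33 higher and 3 lower, and epithelial markers 1 of 12 higher (Dsp) and 1 lower (Tjp1).

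Of the other largest rises by the naming rule, those of the patched-family protein gene Disp2 (1.23 ± 0.26), the zinc finger gene Zc3h6 (1.22 ± 0.14), the acetyltransferase gene Nat9 (1.14 ± 0.14) and the cilium motor gene Dync2li1 (1.05 ± 0.15) belong to none of the lists. Zc3h6 measured 4.69, 5.08 and 4.68 CPM in the DMSO libraries and 10.5, 12.8 and 10.4 CPM in the NS11021 libraries. The other largest falls were in the gap junction gene Gja4 (−1.23 ± 0.14, adjusted p = 9.72e-08), the kinase gene Dmpk (−1.19 ± 0.19), the receptor gene Mrgprf (−1.10 ± 0.28), the iodide carrier gene Slc5a5 (−1.03 ± 0.21), the periaxin gene Prx (−0.99 ± 0.16), Fbxl15 (−0.96 ± 0.26), Lbhd1 (−0.95 ± 0.17), Ankrd23 (−0.90 ± 0.16), the repressor gene Prdm1 (−0.87 ± 0.12) and Fam13b (−0.87 ± 0.11). Slc5a5 measured 22.3, 22.4 and 21.7 CPM with DMSO and 12.5, 10.1 and 9.88 CPM with NS11021, with no overlap. Fbxl15 did not pass without replicate 3 of DMSO or of NS11021. Of the members above that the naming rule chose, 6 more lost the threshold when 1 library was left out: Arc without DMSO replicate 1 or NS11021 replicate 2, Atp5g1 without NS11021 replicate 3, Cdc25b without DMSO replicate 1, Ly6a without DMSO replicate 1 or 2 or NS11021 replicate 2, Ndufs1 without DMSO replicate 3 or NS11021 replicate 2, and Sik1 without replicate 2 or 3 of either group. Members chosen after their values were seen were not followed singly in this way, so their dependence on single libraries is not given. Some named genes share exon bases with another gene, and reads of the 2 cannot be told apart since the counting strand is not given: Ankrd23 (78.2%), Htra2 (43.7%), Lbhd1 (38.4%), Ftl1 (34.6%), Ctsl (26.8%), Fbxl15 (25.6%), Vcl (25.5%), Iars2 (24.2%), Ddb2 (23.8%), Ccn2 (23.2%), Txnip (19.4%), Gadd45a (19.1%) and Ccne2 (17.4%).

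Most of these changes had the same direction in libraries that the comparison did not use. KCl+NS11021 against KCl in E0771 shares no library with NS11021 against DMSO. It gave 2304 genes past the threshold (17.2%), 1281 higher (9.59%) and 1023 lower (7.66%). Of the 1715 genes higher with NS11021, 1636 (95.4%) were also above 0 there and 835 passed in the same direction, which is 48.7% of the 1715 and 65.2% of the 1281; 0 passed in the opposite direction. Of the 1800 lower, 1679 (93.3%) were below 0 and 750 passed, 41.7% of the 1800 and 73.3% of the 1023, with 3 opposite. Over all tested genes 73.7% had the same sign. The medians in KCl were 0.217 for the higher genes (0.327 where they were chosen) and −0.16 for the lower ones (−0.263 where they were chosen); choosing genes by 1 comparison raises their size there, so these sizes are not compared. By list, KCl+NS11021 against KCl had 23 of 38 G1/S genes lower and 0 higher, and 18 of 39 hypoxia and glycolysis genes lower and 4 higher. It had 13 of 24 ERK feedback genes higher and 0 lower, 17 of 39 lysosomal genes higher and 0 lower, and 8 of 38 ATF4 genes higher and 1 lower. Cholesterol synthesis had 15 of 26 lower there, and MRTF-SRF targets 5 of 37 higher and 1 lower. Cd68 (1.23 ± 0.14), Areg (1.30 ± 0.22), Itgb3 (1.14 ± 0.16) and Ldha (−0.33 ± 0.04) passed there, and Gdf15 (0.77 ± 0.30) and Acta2 (0.41 ± 0.13) did not.

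The difference between the 2 changes passed for 29 genes (0.217%), 26 above 0 (0.195%) and 3 below (0.0225%). Txnip was the most positive of those above 2 log2 CPM: it fell with NS11021 from 7.89 ± 0.045 to 1.54 ± 0.127 CPM (SD, n = 3), and in KCl stood at 6.31 ± 0.247 CPM without the compound and 4.39 ± 1.12 with it (SD, n = 3), a difference of 1.83 ± 0.25 on the log2 scale (adjusted p = 0.000525). Gja4 (0.85 ± 0.18, adjusted p = 0.0246) and Prr5 (0.79 ± 0.17) followed, and Ampd3, an AMP deaminase gene (−0.58 ± 0.10, adjusted p = 0.00532), and the actin-capping gene Capg (−0.27 ± 0.05) were most negative. The count of 29 rested on single libraries: it was 12, 19 and 10 without DMSO replicate 1, 2 and 3, 16 and 10 without NS11021 replicate 1 and 2, 12, 6 and 14 without KCl replicate 1, 2 and 3, and 18, 11 and 13 without KCl+NS11021 replicate 1, 2 and 3. Added KCl also raises chloride and osmolarity, and in these groups those cannot be told apart from potassium.

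**Figure D4:**
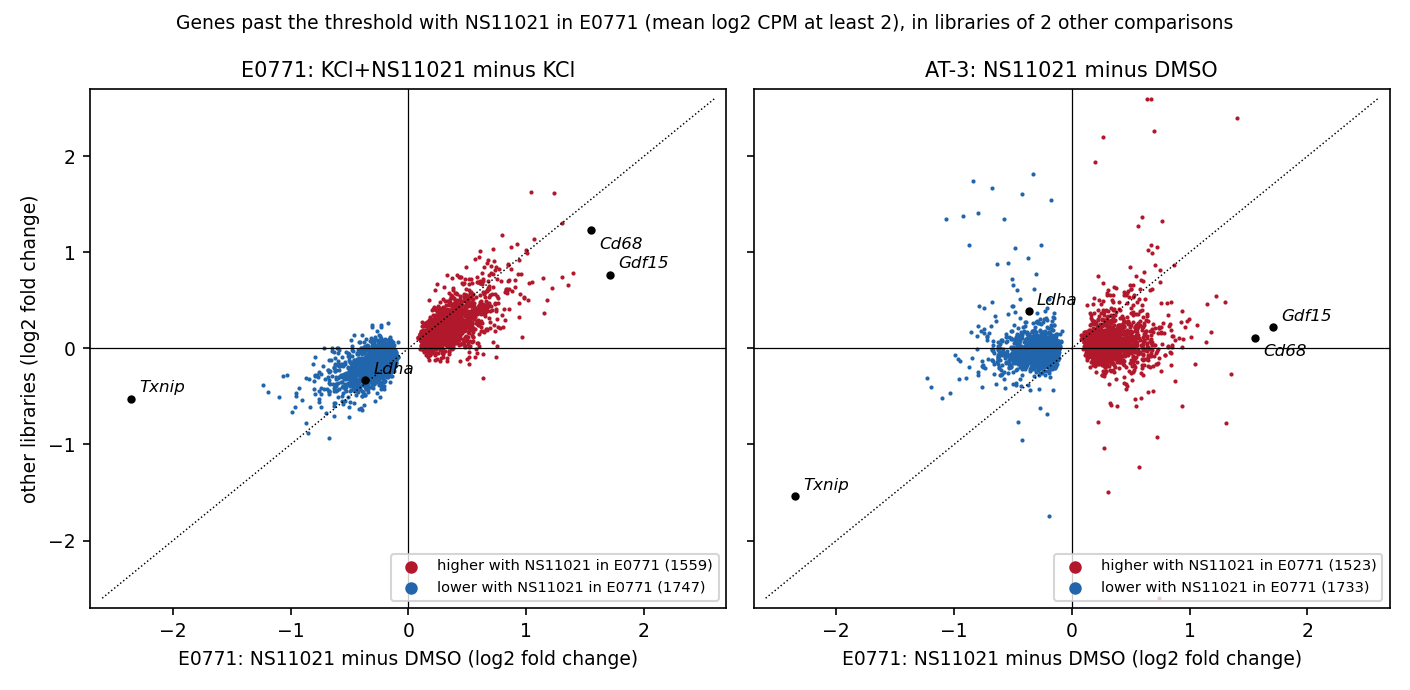
Genes past the threshold with NS11021 in E0771 and above 2 log2 CPM (red higher, blue lower), with their log2 fold change there on the horizontal axes and in 2 other comparisons on the vertical axes, KCl+NS11021 minus KCl in E0771 (left) and NS11021 minus DMSO in AT-3 (right); values beyond 2.6 are drawn at the edge. Red and blue separate along the diagonal in the left panel, where Txnip lies nearer to 0, and spread around 0 in the right panel.

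BMS204352, which opens BK and KCNQ channels, was given at the same dose and time. The direct contrast shares its NS11021 libraries with the comparison above. It passed for 235 genes (1.76%), 151 higher with NS11021 (1.13%) and 84 lower (0.629%). Replicate 3 of BMS204352 stood apart on the third principal component of the 18 libraries (−20.5, against −1.8 and 2.32), and without it the count was 219, 124 higher and 95 lower. Only 140 of these 219 were among the 235, so the genes called depended on that library. Acta2 stood at 154 ± 4.42 CPM with NS11021 and 66.8 ± 15.4 with BMS204352 (SD, n = 3; log2 difference 1.21 ± 0.14, adjusted p = 0.000693; 1.04 ± 0.08 without that library). Ccn2 (1.49 ± 0.26, and 1.09 ± 0.20 without it) and Ly6c1 (1.13 ± 0.21, and 0.82 ± 0.16) were higher with NS11021. Txnip (−1.10 ± 0.19, and −1.15 ± 0.21), the arrestin gene Arrb1 (−0.76 ± 0.11, and −0.69 ± 0.12) and Bnip3 (−0.62 ± 0.10, and −0.68 ± 0.10) were lower. Txnip was thus low with both compounds, at 3.31 ± 0.244 CPM with BMS204352 (SD, n = 3), against 7.89 ± 0.045 with DMSO. By list, 8 of 37 MRTF-SRF targets and 5 of 17 YAP-TEAD targets were higher with NS11021 than with BMS204352 and 0 lower (6 and 4 without that library), and 12 of 39 hypoxia and glycolysis genes were lower and 0 higher (14 and 0). For ATF4 genes the contrast gave 1 of 38 higher and 1 lower, for G1/S genes 1 of 38 higher and 0 lower, which does not show that the compounds act alike on them. The count of 235 was 109, 156 and 120 without NS11021 replicate 1, 2 and 3 and 406 without BMS204352 replicate 2. With the 6 libraries of these groups alone it was 0 by edgeR, with 1180 genes at an unadjusted p below 0.05, and DESeq2 on the 18 libraries gave 342.

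In AT-3, NS11021 against DMSO passed for 11 of 14772 genes (0.0745%), 10 higher (0.0677%) and 1 lower (0.00677%). The lines were fitted apart and their precision differed, so the counts of calls do not compare the size of the response. The standard error was 0.13 in AT-3 and 0.04 in E0771 for Actb, 0.15 and 0.06 for Srf, and 0.12 and 0.13 for Acta2. Of the 1639 genes higher in E0771 that were tested in AT-3, 67.5% were above 0 there and 6 passed. Of the 1779 lower, 63.5% were below 0 and 1 passed, and over all 12278 genes tested in both 57.5% had the same sign. A difference between the lines passed for 637 of 15969 genes (3.99%), with 238 (1.49%) above 0, the change in E0771 being the higher one, and 399 (2.5%) below 0. Of the hypoxia and glycolysis list 23 of 39 members were more negative in E0771 and 0 more positive, with a median in AT-3 of 0.236. Ldha was 0.39 ± 0.09 in AT-3 and Pfkl 0.36 ± 0.11, neither past the threshold there, and the difference passed for both (adjusted p = 4.55e-05 for Ldha and adjusted p = 3.29e-05 for Pfkl). ER chaperones had 9 of 28 more negative in E0771, among them Hspa5 (0.23 ± 0.06 in AT-3). G1/S genes had 4 of 38 more negative. For the ATF4 list the difference passed for 1 member more positive in E0771 and 3 more negative, and in AT-3 its median was 0.507, with 4 of 38 members past the threshold, all higher. Gdf15 (0.22 ± 0.23 in AT-3) and Cd68 (0.11 ± 0.38) differed between the lines (adjusted p = 0.0228 and adjusted p = 0.0303), and Txnip, at −1.54 ± 0.63 in AT-3, did not pass. The count of 637 was 344 and 356 without E0771 DMSO replicate 1 and 3, 270 without E0771 NS11021 replicate 2, 387 without AT-3 DMSO replicate 2, and 417 and 394 without AT-3 NS11021 replicate 1 and 3.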

How the data were processed

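RNA of E0771 cells was extracted with RNeasy columns and made into libraries with a NuGen Universal Plus mRNA kit, per the labels' protocols. The deposited table holds whole-number counts per gene and library, which the authors made with STAR and featureCounts on GRCm38, per the submitters' processing notes; no source used here gives versions, the strand setting or the treatment of read mates. Of the counts from 1 to 10 in the table, 84.5% were even. Whether both mates of a fragment were counted was not tested. With halved counts 3593 genes passed for NS11021 against DMSO. Columns were matched to samples by name, and 0 were left unmatched. A pair of rows with human-form IDs (6 counts) was dropped, and 50 IDs had no symbol.

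All 18 E0771 libraries were fitted with edgeR 4.0.16 (TMM, filterByExpr with a count minimum of 10 and a total of 15, robust quasi-likelihood fit without a block) in R 4.3.3, with 12 residual degrees of freedom. Library totals of 34.7 to 47.9 M counts and a biological coefficient of variation of 0.0707 set the precision. The AT-3 comparison used the 18 AT-3 libraries and the difference between lines all 36. p-values were adjusted by Benjamini-Hochberg over all genes tested, with a threshold of 0.05. Alternatives were DESeq2 1.42.0, its size factors, other filters, halved counts, fewer libraries, a replicate block and leaving out each library. The scripts were tested on simulated data.

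The members and lists were chosen with earlier results of these data known. Named genes were the index genes of channels and of MRTF-SRF that passed the filter, the 12 largest rises and falls past the threshold at a mean of at least 2 log2 CPM, for each list with at least 3 members past it the 4 (or fewer) of lowest adjusted p, and the 3 most positive and negative of each difference. Predicted genes (Gm or Rik symbols) were passed over. Further members named with "did not pass", and those named in lists with fewer calls, were chosen after their values were seen. Some members that this rule names are not reported here.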

Additional observations from a re-analysis of the deposited data

Results flagged for a closer look

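The change with NS11021 differed between E0771 cells with and without KCl for 29 genes, by the test of the difference itself. Its extremes among named genes were Txnip (1.83), Gja4 (0.85), Prr5 (0.79), Ampd3 (−0.58) and Capg (−0.27), as log2 differences of KCl+NS11021 against KCl minus NS11021 against DMSO. Gja4 stood at 9 ± 1.23 CPM with DMSO, 3.83 ± 0.728 with NS11021, 33 ± 0.391 with KCl and 25.4 ± 1.29 with both (SD, n = 3). Ampd3 stood at 22.7 ± 1.92, 33.9 ± 0.814, 97.5 ± 9.3 and 97.3 ± 4.32 CPM in the same order (SD, n = 3), so it was near its level in KCl with or without the compound.

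The change differed between E0771 and AT-3 for 637 genes, by the test of the difference between lines. The most positive were Dnmbp (4.59), Rbm47 (2.83) and BC006965 (2.38), and the most negative Gdap1l1 (−5.52), Magee1 (−4.92) and Ereg (−4.09), as log2 differences. Each of these genes was near 0 in 1 of the lines and passed the filter through the other, so its difference rests on few counts: Dnmbp had 0.0162 CPM with DMSO in E0771 and 22.2 in AT-3, and the EGF-type ligand gene Ereg 23.1 CPM in E0771 and 0.0283 in AT-3. Gdap1l1 was at 0 in AT-3 with DMSO and Magee1 at 0 in E0771 with NS11021, so their fitted values depend on the prior count and are no bound.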

How the results depend on the processing

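NS11021 against DMSO gave 2553 to 4251 genes past the threshold in the alternatives tried. Leaving out single libraries gave 2553 to 2972 genes, 1271 to 1477 higher and 1282 to 1495 lower. The difference between the changes with and without KCl (29 genes) was 87 with DESeq2, 122 with no filter, 235 with only the libraries compared and 6 to 23 without single libraries. NS11021 against BMS204352 (235) was 419 with no filter, 0 with only the libraries compared, and 109 to 406 without single libraries. The difference between lines (637) was 1143 with only the libraries compared and 270 to 552 without single libraries. The causes were not tested. Of 165 named genes past the threshold 144 passed in every alternative and 21 lost it in some, while 0 changed direction; Actb, not past the threshold, ran from −0.0078 to 0.0319 without single libraries, below 0 without NS11021 replicate 1. Size factors for the lists, and all alternatives for the 2 families below, were chosen after seeing the data, and no count of a list moved by over 1.5 times with size factors.

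Deviations of same-numbered DMSO and NS11021 libraries correlated at 0.142, −0.066 and −0.046 over 9772 genes. Not every library correlated best with its own number. This check covered only the 6 libraries compared, so it cannot exclude a pairing by replicate number. With the replicate block more genes passed in each comparison. The counts were 3766 for NS11021 against DMSO (3515 without it) and 53 for the difference with KCl (29). They were 351 against BMS204352 (235) and 1056 for the difference between lines (637).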

Other observations

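The cytosolic ribosomal protein genes moved together by small amounts. Of 76 tested genes of that family 41 were higher with NS11021 (53.9%, against 12.8% of all genes) and 1 was lower, the paralog Rpl7l1, with a median of 0.099. The family was chosen after its values were seen. Rpl3, of the large subunit, measured 1052, 1097 and 1088 CPM in the DMSO libraries and 1265, 1289 and 1294 CPM in the NS11021 libraries (0.25 ± 0.03, adjusted p = 1.43e-06), and Rps18, of the small subunit, measured 832, 882 and 846 CPM with DMSO and 943, 951 and 931 CPM with NS11021 (0.14 ± 0.03). Reads of such genes can be shared with processed pseudogenes. Their share of all counts was 5.59 to 5.90% with DMSO and 6.12 to 6.20% with NS11021. Without DMSO replicate 3 the count of 41 was 22. In KCl+NS11021 against KCl, which uses other libraries, 58 of the 76 were higher and 1 lower.

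Splicing factors, also chosen after their values were seen, went the other way. Of 72 tested genes 29 were lower (40.3%, against 13.5%) and 1 higher, with a median of −0.113. Srsf2, an SR protein that marks exons, measured 183, 178 and 185 CPM in the DMSO libraries and 136, 123 and 134 CPM in the NS11021 libraries (−0.48 ± 0.06, adjusted p = 4.32e-07), and Hnrnpm, which binds introns and exons of pre-mRNA, measured 621, 603 and 638 CPM with DMSO and 489.7, 471 and 473 CPM with NS11021 (−0.38 ± 0.04). The SF3b subunit gene Sf3b3 fell (−0.39 ± 0.04), and Prpf40b was the 1 that rose (0.85 ± 0.10). In KCl+NS11021 against KCl 23 of the 72 were lower and 1 higher. The difference between the lines passed for 9 of 72 that were more negative in E0771 and 1 more positive.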
